A study of Oryza sativa with 16 samples.

Results

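Leaves of rice plants that over-express the histone variant H4.V (OE-H4.V) were set against leaves of plants that over-express a chimeric histone, H4.Vs (OE-H4.Vs). The chimera joins the N-terminal part of H4.V to the C-terminal part of the canonical H4. Both lines therefore carry the same N-terminal part, and the proteins they over-express differ in the rest of the molecule. The members are the libraries that the labels give as these genotypes in mature leaf, 2 of OE-H4.V and 2 of OE-H4.Vs, which makes 4 of the 16 RNA-seq libraries of the series. The OE-H4 line, which over-expresses the canonical H4, and wild type (WT) leaves, with 2 libraries each, complete the 8 leaf libraries. The other 8 libraries are from h4.v knockout (h4.v KO) and WT seedlings, with and without 120 mM NaCl.

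All plants were of the Indica cultivar Pusa Basmati 1, and the leaf plants grew in a greenhouse with no stress treatment. The labels give their age as mature. In each OE line a maize Ubiquitin promoter drives the coding sequence, so that the transgene is expressed in most tissues and on top of the plant's own H4 genes. Neither the labels nor the methods say whether the libraries of a line came from separate plants, or how many transformation events a line stands for. The p-values thus measure the spread between these libraries only, and the construct and the line that carries it cannot be told apart.

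H4 is a core histone, which pairs with H3 in the centre of the nucleosome. Its N-terminal tail reaches out of the particle and carries acetylation and methylation sites, and its C-terminal part holds most of the histone fold that contacts H3 and H2B. Most H4 genes of a plant encode the same protein, and the variant H4.V is an exception in rice. Comparing OE-H4.V with OE-H4.Vs asks what the C-terminal part of H4.V adds to the leaf transcriptome when its N-terminal part is present in both lines.

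The deposited values are FPKM (fragments scaled to transcript length and to the mapped fragments of a library), listed per library for annotated spans and for assembled loci. The files give no read counts. From the widths of the confidence intervals, the depth relative to OE-H4.Vs replicate 1 was 0.875 and 0.928 in the OE-H4.V libraries and 0.741 in OE-H4.Vs replicate 2. Loci were matched by position to annotated genes, and 11204 genes whose mean over the 8 leaf libraries reached 1 FPKM were compared as log2(FPKM + 1) with limma. Loci shorter than 300 bp held 1.18% and 16.7% of the FPKM in OE-H4.V replicates 1 and 2, against 14.6% and 20.6% in OE-H4.Vs. The share was 0.959% and 11.5% in OE-H4 and 19.9% and 0.801% in WT, so that 1 replicate of OE-H4.V, OE-H4 and WT had a low share and the other 5 leaf libraries a high one. Counts with these short loci left out, and counts without OE-H4.V replicate 1, are given below. Other effects of this difference on the results were not tested.

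The H4.V gene was matched by position to Os05g0462900 (IRGSP1.0 chromosome 5, bases 22743760 to 22744188). Its level was 3369 and 3162 FPKM in the OE-H4.V leaves, and it was listed at 0 in both OE-H4.Vs libraries and in the OE-H4 and WT leaves. The values rest on 1 locus of 302 bp in each OE-H4.V library, for which replicate 1 listed 4785 FPKM with bounds of 4562 and 5009, and replicate 2 listed 4492 FPKM with bounds of 4283 and 4702. H4.V was the gene with the smallest adjusted p of the comparison (1.25e-07 by limma, adjusted after Benjamini-Hochberg over all genes tested). The label OE-H4.V thus has its counterpart in the data. For OE-H4.Vs the values at this gene do not check the label. The primer that the study lists for its H4.Vs transgene starts the coding sequence as a recoded H4.V sequence does. That start differs in bases from the native one, and reads of such a chimera need not map to the H4.V gene. The methods instead describe a chimera ligated from PCR pieces of H4.V and H4, with both coding sequences amplified from cDNA. Reads of a chimera made that way could map to the H4.V gene. Which sequence the plants carry was not tested. The files do not name the canonical H4 genes, so a rise of their transcripts in OE-H4.Vs was not analysed here.

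Apart from this gene, the leaf transcriptomes of OE-H4.V and OE-H4.Vs were close to each other. The absolute difference of the group means was under 0.5 on the log2 scale in 9880 genes (88.2%), and its median was 0.18. The median standard error of the difference was 0.21. For 8612 genes (76.9%), the 95% interval of the difference lay wholly within 1 log2 unit of 0. Single libraries of the lines differed from each other by a median of 0.21 to 0.28, compared with 0.23 between the replicates of OE-H4.V and 0.24 between those of OE-H4.Vs. Across the 11204 genes, which are not independent replicates, the Pearson r between an OE-H4.V and an OE-H4.Vs library was 0.924 to 0.943. It was 0.947 between the OE-H4.V replicates and 0.932 between the OE-H4.Vs replicates, so that a library of the other line was about as near as the other replicate. Against OE-H4 and WT leaves, r was 0.890 to 0.927 and 0.850 to 0.882.

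**Figure D1:**
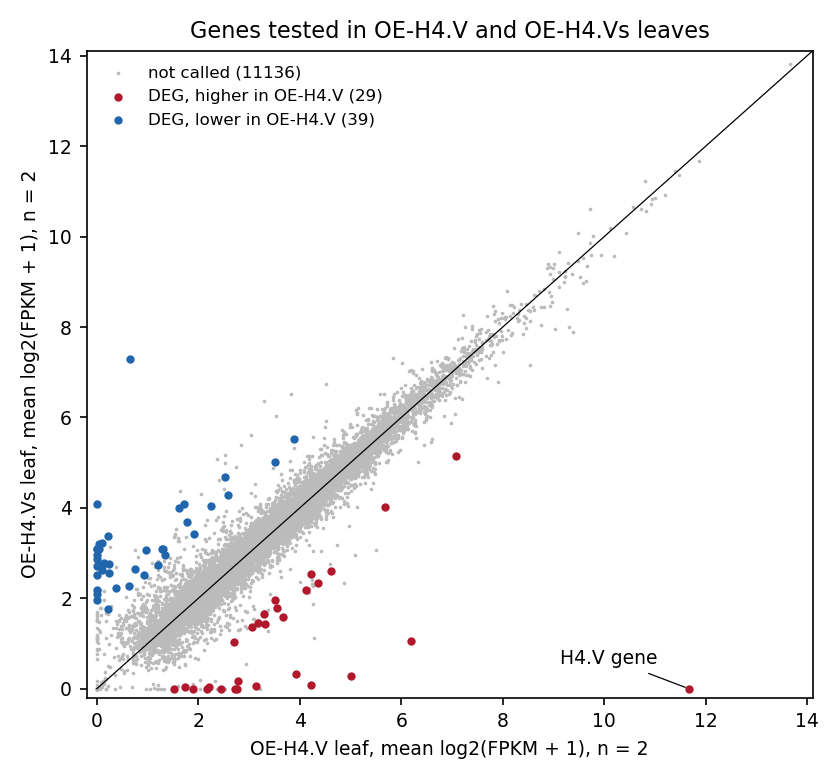
Mean log2(FPKM + 1) in OE-H4.V leaves (horizontal axis) and OE-H4.Vs leaves (vertical axis) for the 11204 genes tested, with 2 libraries per line and the line of equal levels. The 29 genes called higher and the 39 called lower in OE-H4.V lie below and above the diagonal, many of them along an axis, and the H4.V gene stands alone at the right.

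Differentially expressed genes (DEGs) had to differ by over 1.5 on the log2 scale in either direction at an unadjusted p under 0.05. These are the cut-offs of the study's methods, which used Cufflinks. Here they were applied to limma on log2(FPKM + 1), so the counts are not those of the study's own test. Of the genes tested, 68 (0.607%) were DEGs, 29 of them higher in OE-H4.V (0.259%) and 39 lower in OE-H4.V (0.348%). The other leaf comparisons, which share libraries with this one, gave 452 DEGs for OE-H4.V against WT, 523 for OE-H4.Vs against WT, 248 for OE-H4.V against OE-H4 and 213 for OE-H4.Vs against OE-H4. In all 68 DEGs the libraries of the lines did not overlap, which was also true of 33.6% of all genes tested. An unadjusted p under 0.05 was found in 783 genes (6.99%). After Benjamini-Hochberg adjustment of limma's p-values, 12 genes passed 0.05 (0.107%), 5 higher and 7 lower in OE-H4.V. The other 56 DEGs had adjusted p-values up to 0.706. With loci shorter than 300 bp left out of the gene values there were 66 DEGs, and all 66 were among the 68. In that setting 14 genes had an adjusted p under 0.05 (limma), the 12 among them. Without OE-H4.V replicate 1, the member library with a low share of its FPKM in short loci, there were 123 DEGs (44 higher, 79 lower in OE-H4.V), and 45 of the 68 were among them. The count was 101 without OE-H4.V replicate 2, 122 without OE-H4.Vs replicate 1 and 195 without OE-H4.Vs replicate 2.

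The files do not pair gene identifiers with names or functions, so genes are described by position and level, and identifiers are printed for H4.V and for 2 further genes in each direction. Each of the 12 genes also has values in OE-H4 and WT leaves. Those libraries enter the filter and the estimate of the spread but not the difference itself, and their levels place the 12 in several patterns. Besides H4.V, 4 genes were higher in OE-H4.V and OE-H4 than in OE-H4.Vs and WT. In 3 genes OE-H4.V was low while the 3 other groups were high. In a further 3 OE-H4.Vs was high while the 3 other groups were low or at 0, and 1 gene was expressed in OE-H4.Vs and OE-H4 but not in OE-H4.V and WT.

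**Figure D2:**
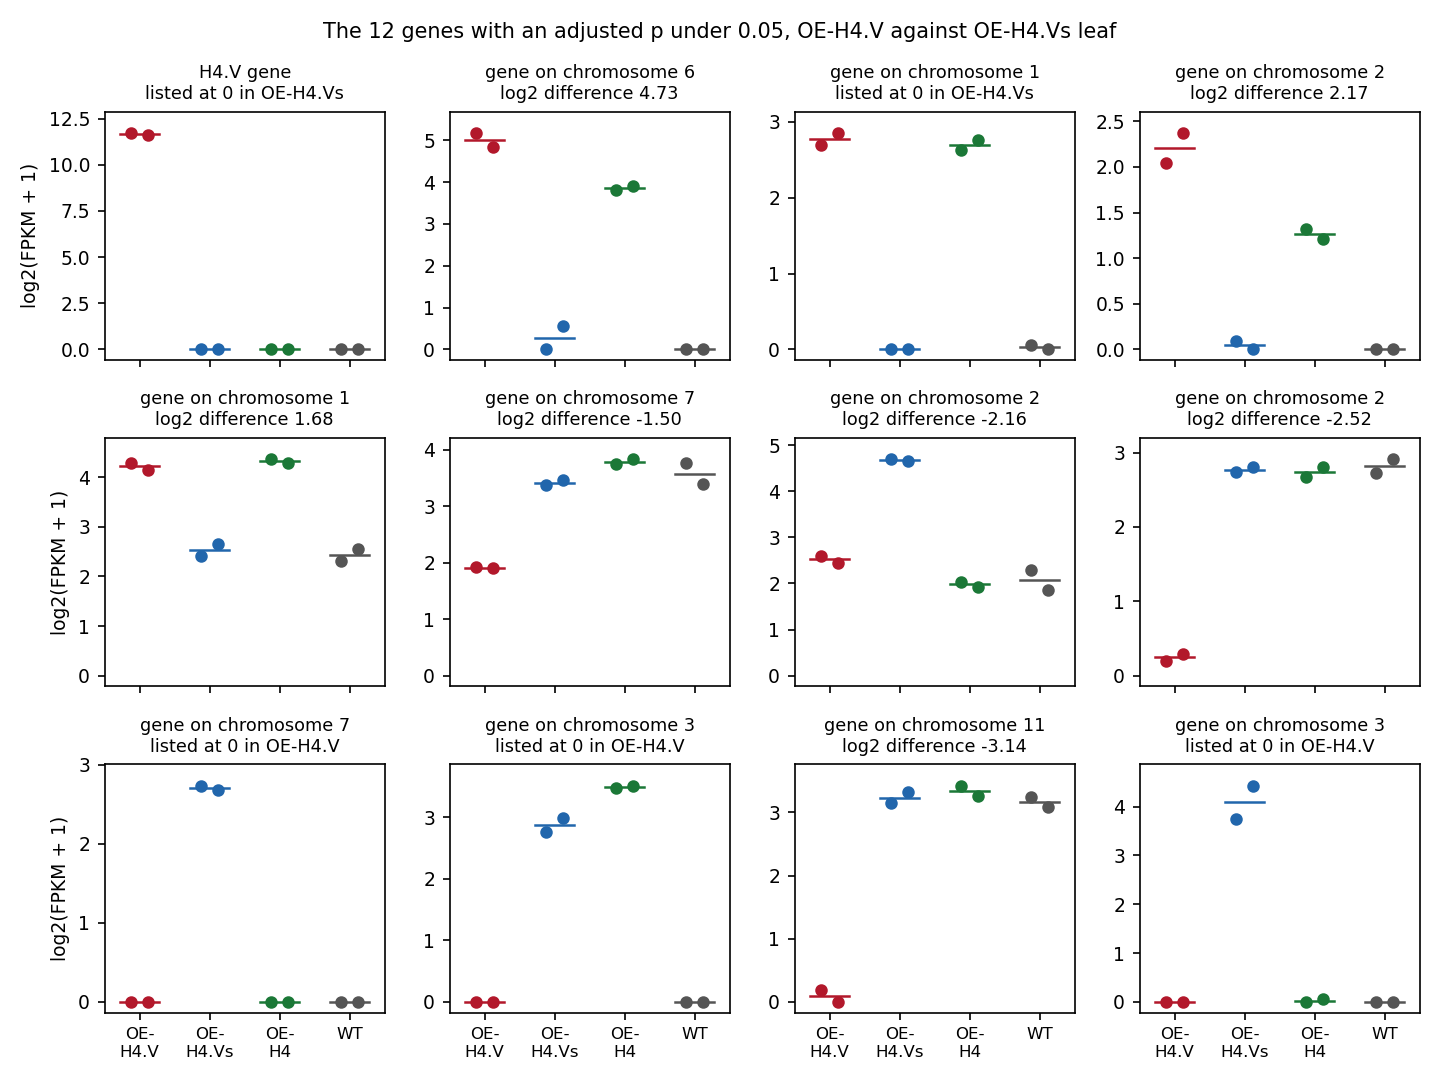
Level of the 12 genes with an adjusted p under 0.05, as log2(FPKM + 1), in OE-H4.V, OE-H4.Vs, OE-H4 and WT leaves. Points are the 2 libraries of a group and lines their mean. The vertical scale differs between panels, and each title gives the log2 difference of OE-H4.V minus OE-H4.Vs or the line in which the gene was listed at 0.

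Os06g0295900 (chromosome 6, 10926731 to 10928479) had the largest difference of the first pattern. The OE-H4.V libraries had 35.1 and 27.8 FPKM, against 0 and 0.480 FPKM in OE-H4.Vs. OE-H4 had 13.1 and 14.0 FPKM, and both WT libraries listed the gene at 0. The OE-H4.V libraries were thus the highest of the 8 and OE-H4.Vs lay next to WT. The log2 difference was 4.73 (SE 0.23), for which limma gave an adjusted p of 0.00118. With a pseudocount of 0.1 FPKM the adjusted p was 0.0500038, just above the threshold. In seedlings this gene was at 10.8 and 12.5 FPKM in h4.v KO and at 6.31 and 3.73 FPKM in h4.v KO with salt, while all 4 WT seedling libraries, with and without salt, listed it at 0. Of 10408 of the tested genes that could also be read in seedlings, 2 had at least 2 FPKM in every h4.v KO library and under 0.5 FPKM in every WT seedling library.

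Os01g0606400 (chromosome 1, 23895058 to 23897435) was at 5.46 and 6.21 FPKM in OE-H4.V and listed at 0 in both OE-H4.Vs libraries (adjusted p = 0.00317, limma). OE-H4 had 5.18 and 5.76 FPKM, against 0.0413 and 0 FPKM in WT leaves. OE-H4.V and OE-H4 were therefore at nearly the same level, and OE-H4.Vs and WT were at or near 0. A span on chromosome 2 that is annotated but carries no identifier (30786415 to 30789994) had 3.14 and 4.17 FPKM in the OE-H4.V libraries, against 0.0624 and 0 FPKM in the OE-H4.Vs libraries (log2 difference 2.17, SE 0.22, adjusted p = 0.0311 from limma). Its level was 1.51 and 1.31 FPKM in OE-H4, and WT listed it at 0.

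The last gene of this pattern lies on chromosome 1 from 41510192 to 41519672, and its call depends on how loci of unequal length are counted. Its level was 18.6 and 16.6 FPKM in OE-H4.V, against 4.35 and 5.27 FPKM in OE-H4.Vs, and OE-H4 had 19.5 and 18.6 FPKM, against 3.95 and 4.84 FPKM in WT. The locus that carried these values spanned 9125 and 9037 bp in OE-H4.V but only 3701 and 3253 bp in OE-H4.Vs. The FPKM of that locus itself were 19.3 and 17.4 for OE-H4.V, against 11.4 and 15.4 for OE-H4.Vs. When the FPKM of loci were summed without weighting by the share of the gene covered, the log2 difference fell to 0.44, with an adjusted p of 0.734 (limma), instead of 1.68 (SE 0.16) with 0.0198.

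Among the genes low in OE-H4.V only, Os11g0133600 (chromosome 11, 1552041 to 1554077) was at 0.138 and 0 FPKM in OE-H4.V, against 7.87 and 8.96 FPKM in OE-H4.Vs. OE-H4 had 9.73 and 8.60 FPKM and WT had 8.51 and 7.46 FPKM, so that 6 of the 8 leaf libraries were at a common level and the OE-H4.V libraries lay far below it. The log2 difference was -3.14 (SE 0.17, adjusted p = 0.00158 from limma). In seedlings the same gene was at 0.0437 and 0.0779 FPKM in WT with salt, against 6.39 and 5.51 FPKM in WT without salt. In h4.v KO it was at 4.21 and 4.71 FPKM with salt and at 10.1 and 7.98 FPKM without it.

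The gene at 17781040 to 17785512 of chromosome 2 had 0.145 and 0.228 FPKM in OE-H4.V, against 5.68 and 5.97 FPKM in OE-H4.Vs (log2 difference -2.52, SE 0.17, adjusted p = 0.00292 from limma). The 4 libraries of OE-H4 and WT lay between 5.38 and 6.50 FPKM, so that the OE-H4.V libraries alone were low in leaf. With salt it was low in seedlings too, at 0.197 and 0.215 FPKM in h4.v KO, against 6.57 and 6.41 FPKM without salt. In WT seedlings it had 0.293 and 0.179 FPKM with salt, against 5.59 and 5.77 FPKM without. The third gene of this kind, on chromosome 7 from 16886901 to 16890362, was reduced but not lost. The loci behind its values began before the gene. In OE-H4.V 3367 of 6475 bp and 3462 of 6622 bp lay inside it, and in OE-H4.Vs 3462 of 6593 bp and 3367 of 6475 bp. Whether the level belongs to this gene was not tested. OE-H4.V had 2.78 and 2.76 FPKM, against 9.32 and 10.03 FPKM in OE-H4.Vs, and OE-H4 and WT lay between 9.45 and 13.2 FPKM (log2 difference -1.50, SE 0.17). Its adjusted p of 0.0487 (limma) was the largest of the 12. Without 1 library it was 0.131 (OE-H4.V replicate 1 left out), 0.148 (OE-H4.V replicate 2), 0.0959 (OE-H4.Vs replicate 1) and 0.0828 (OE-H4.Vs replicate 2).

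Of the genes with a high level in OE-H4.Vs alone, Os03g0180500 (chromosome 3, 4216734 to 4219053) was listed at 0 in both OE-H4.V libraries and was at 12.5 and 20.5 FPKM in OE-H4.Vs (adjusted p = 0.00292, limma). The other leaf libraries had at most 0.0376 FPKM, and all 8 seedling libraries listed it at 0. A second gene, at 15293180 to 15294805 of chromosome 7, was listed at 0 in OE-H4.V and had 5.67 and 5.41 FPKM in OE-H4.Vs (adjusted p = 0.00732, limma). Of its loci of 2787 and 2943 bp in OE-H4.Vs, 1626 bp lay inside the gene. This gene too was listed at 0 in the other 12 libraries of the series. OE-H4.Vs is thus the one genotype of the series in which these genes had a value above 0.1 FPKM. Both passed the filter of 1 FPKM through the OE-H4.Vs libraries, so a gene tested with such a pattern had to differ. H4.V passed likewise through OE-H4.V. The chromosome 2 span at 30786415 also reached the filter only with its OE-H4.V values.

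The remaining gene of this pattern, on chromosome 2 from 25442875 to 25450093, again turned on locus length. OE-H4.V had 5.06 and 4.45 FPKM, against 24.8 and 24.4 FPKM in OE-H4.Vs, with 2.64 to 3.91 FPKM in OE-H4 and WT. The locus that carried these values was 2193 and 2249 bp long in OE-H4.V and 7232 and 7199 bp long in OE-H4.Vs. With the plain sum of the loci its log2 difference was -0.62 (adjusted p = 0.680, limma) instead of -2.16 (SE 0.19, 0.0115). This gene and the 2 genes at 30786415 on chromosome 2 and 41510192 on chromosome 1 each overlap another annotated span.

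The gene expressed in OE-H4.Vs and OE-H4 lies on chromosome 3 from 36082364 to 36096479. It was listed at 0 in OE-H4.V and was at 5.79 and 6.90 FPKM in OE-H4.Vs (adjusted p = 0.00292, limma). OE-H4 had 10.2 and 10.4 FPKM, and WT leaves and all 8 seedling libraries listed it at 0. Here OE-H4.Vs was above WT together with OE-H4, unlike in the 4 genes of the first pattern, where OE-H4.V was.

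Of the 12 genes, 8 kept an adjusted p under 0.05 (limma) when each of the 4 libraries was left out in turn, H4.V and the 4 genes printed by identifier among them. Besides the gene at 16886901 on chromosome 7, the adjusted p of the gene at 41510192 on chromosome 1 was 0.0779, 0.0667 and 0.0562 without OE-H4.V replicate 1, OE-H4.V replicate 2 and OE-H4.Vs replicate 1. For the gene at 30786415 on chromosome 2 it was 0.107 without OE-H4.V replicate 2 and 0.0520 without OE-H4.Vs replicate 1, and for that at 25442875 it was 0.0667 without OE-H4.V replicate 2 (all limma). With the 4 libraries of the lines alone in the fit, which leaves 2 residual degrees of freedom before limma borrows across genes, 1 gene, H4.V, had an adjusted p under 0.05, and the next smallest among the 12 was 0.0563.

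Many DEGs separated the lines as present against absent. In 31 of the 68, both libraries of one line had at least 2 FPKM and both of the other had under 0.5 FPKM, 13 of them with the high level in OE-H4.V and 18 with it in OE-H4.Vs. No other tested gene had this pattern. The pattern itself requires a wide gap with no overlap, and some of these genes passed the filter through the high line alone. That every tested gene with it was a DEG was therefore largely set in advance. Of these 31 genes, 9 had an adjusted p under 0.05 (limma). Over the 29 higher DEGs, the median level was 8.85 and 9.41 FPKM in the OE-H4.V libraries, against 0.344 and 0.167 FPKM in OE-H4.Vs. The medians in OE-H4 (2.62 and 5.30 FPKM) and WT (2.11 and 1.99 FPKM) lay between those of the lines. Over the 39 lower DEGs, the median was 0.102 and 0.104 FPKM in OE-H4.V, against 7.68 and 6.82 FPKM in OE-H4.Vs, with 3.91 and 2.97 FPKM in OE-H4 and 2.39 and 2.64 FPKM in WT. The DEGs were less abundant than the genes tested as a whole, with a median of 5.53 against 9.65 FPKM over the 8 leaf libraries, and 31 of the 68 (45.6%) had a mean under 5 FPKM, against 30.5% of all genes tested.

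**Figure D3:**
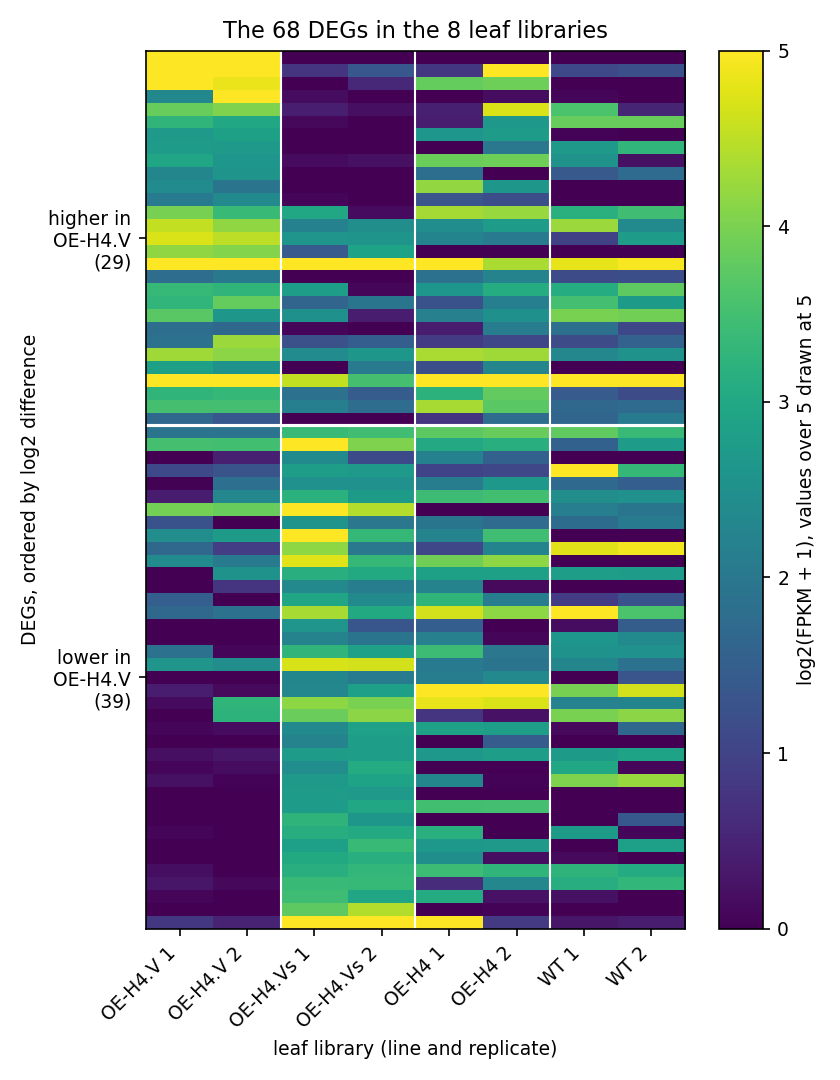
Level of the 68 DEGs as log2(FPKM + 1), drawn from 0 to 5, in the 8 leaf libraries. Rows are genes in the order of the log2 difference of OE-H4.V minus OE-H4.Vs, with the 29 higher genes above the horizontal line, and columns are libraries by line and replicate. OE-H4 and WT match OE-H4.V in some genes and OE-H4.Vs in others, and in some their own replicates differ.

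The mean of OE-H4 was nearer to OE-H4.Vs in 34 DEGs and nearer to OE-H4.V in the other 34, where over all genes tested it was nearer to OE-H4.Vs in 53.0%. The mean of WT was likewise nearer to OE-H4.Vs in 34 and to OE-H4.V in 34, against 47.3% nearer to OE-H4.Vs over all genes. By direction, WT was nearer to OE-H4.Vs in 18 of the 29 genes higher in OE-H4.V, and nearer to OE-H4.V in 23 of the 39 lower ones, so it lay more often near the line with the low level. OE-H4 was nearer to the low line in 13 of the 29 and 18 of the 39. With a distance of 1 log2 unit from WT as the limit, only OE-H4.V departed from WT in 25 DEGs, only OE-H4.Vs in 27, both to the same side in 10 and to opposite sides in 5. In 1 DEG both lay within 1 unit of WT. Over all 11204 genes tested, only OE-H4.V departed in 293, only OE-H4.Vs in 372, both to the same side in 732 and to opposite sides in 5. In 9802 genes both lay within 1 unit of WT. The DEGs were picked by the difference between the lines, which favours a departure of 1 line alone. These are counts with no test.

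The 13 genes on in OE-H4.V and off in OE-H4.Vs and the 18 with the reverse pattern also had mixed states elsewhere in leaf. Of the 13, 5 were on in both OE-H4 libraries and 2 were off in both, with the 6 others in between or different between replicates. Of the 18, 7 were on in OE-H4 and 4 were off. In seedlings, 6 of the 13 had at least 2 FPKM in all 8 libraries. Of the 17 genes on in OE-H4.Vs that could be read in seedlings, 0 did so, and 4 of them were under 0.5 FPKM in all 8. The matching shares over all genes tested were not computed, so whether these counts are unusual cannot be told.

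Whether the DEGs vary between other groups was read from contrasts whose differences use none of these 4 libraries. Between OE-H4 and WT leaves, 26 of the 68 (38.2%) were DEGs by the same cut-offs, beside 7.35% of all genes tested. They were 17 higher and 9 lower in OE-H4, and the share was alike for the genes higher in OE-H4.V (11 of 29) and lower in OE-H4.V (15 of 39). The OE-H4 against WT contrast still takes its filter and its estimate of the spread from all 8 leaf libraries. The 68 were picked by p-values on that same spread, so the 38.2% is not independent of how they were picked. In seedlings, 50 of the 68 genes were tested. The seedling fit tested 13834 genes, some of which were not tested in leaf. Between h4.v KO and WT, 7 of the 50 (14.0%) were called, beside 5.93% of the 13834. These were 1 of 21 genes higher in OE-H4.V (4.76%) and 6 of 29 lower in OE-H4.V (20.7%). Between WT with salt and WT without salt, 13 of the 50 (26.0%) were called, beside 11.6% of the 13834. The 13 were 3 higher and 10 lower with salt. Among the genes lower in OE-H4.V, 6 of 29 were DEGs with salt, and among the genes higher in OE-H4.V, 7 of 21 were.

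Replicates of 1 group could differ by as much as the lines did. Between the OE-H4.V replicates 202 genes differed by over 1.5 on the log2 scale and between the OE-H4.Vs replicates 333, compared with 230 to 349 genes between single libraries of the lines. OE-H4 had 182 and WT 190 such genes. Of the 68 DEGs, 16 differed by over 1.5 between the OE-H4 replicates and 10 between the WT replicates, among 1.62% and 1.70% of all genes tested. An example is a gene on chromosome 8 (1619222 to 1621388), chosen after its values were seen. Its level was 68.1 and 75.6 FPKM in OE-H4.V, against 0.706 and 1.56 FPKM in OE-H4.Vs, but OE-H4 had 0.750 and 74.6 FPKM, and the adjusted p was 0.642 (limma). Similarly, a gene on chromosome 12 (15758649 to 15760484) had 4.08 and 68.5 FPKM in the OE-H4.V replicates, against 0.116 and 0 FPKM in OE-H4.Vs (adjusted p = 0.546, limma). When only genes whose replicates lay within 1 log2 unit in WT and in OE-H4 were tested, a setting chosen after the data were seen, 41 DEGs were called (18 higher, 23 lower) and 34 of them were among the 68.

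**Figure D4:**
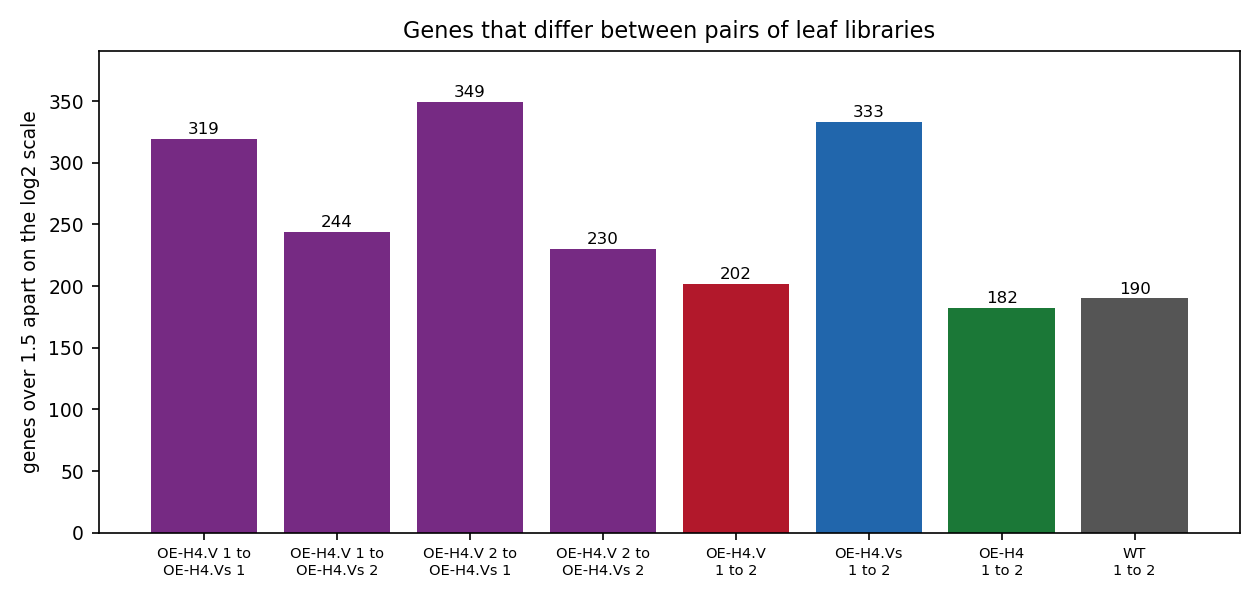
Number of genes, of the 11204 tested, that differ by over 1.5 as log2(FPKM + 1) between 2 leaf libraries. The first 4 bars compare an OE-H4.V with an OE-H4.Vs library and the last 4 compare the replicates of a group. The bar of the OE-H4.Vs replicates (333) stands above those of 3 pairs between the lines (319, 244 and 230) and below that of the fourth (349).

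How a gene was assembled moved with these differences. An assembled locus, as opposed to the annotated span alone, was present in all 4 libraries for 94.2% of the genes tested but for 20 of the 68 DEGs (29.4%). In 30 DEGs both libraries of 1 line had an assembled locus and neither of the other did, 12 with the locus in OE-H4.V and 18 with it in OE-H4.Vs. Over all genes tested there were 18 of the first kind and 23 of the second. Its part in the differences was not tested. A value of 0 here means that no locus with a level above 0 was listed. A value that rests on a locus of 1 FPKM or more whose interval reaches 0 was found in 2 DEGs. One is the DEG with the largest fitted fall, a span with no identifier on chromosome 2 (23909403 to 23913641), with 0.761 and 0.404 FPKM in OE-H4.V, against 79.7 and 303.5 FPKM in OE-H4.Vs. The value of OE-H4.Vs replicate 2 came from a locus of 87 bp with an interval from 0 to 56522 FPKM.

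The DEGs lay on all 12 chromosomes, from 0.251% of the genes tested on chromosome 3 to 1.39% on chromosome 12. Chromosome 10 had no higher DEG. Next to each other along the chromosome, 1 pair of tested genes was called, Os11g0133600 and a gene 55705 bp before it, which went in opposite directions. That neighbour had 5.69 and 5.48 FPKM in OE-H4.V and was listed at 0 in OE-H4.Vs. The first 2.5 Mb of chromosomes 11 and 12 held 5 of the DEGs among 141 genes tested (3.55%), against 0.607% of all genes, with 2 higher and 3 lower in OE-H4.V. That window was chosen after the values were seen. These chromosome ends carry a duplicated segment with closely similar gene copies, and reads may be shared between copies, so the levels of single genes there are uncertain.

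The genes left out of the test include some with large differences as well. Of 5443, 12 had at least 10 FPKM in both OE-H4.V libraries and under 0.5 FPKM in both OE-H4.Vs libraries, and 30 had the reverse. They were left out because a locus covering a further gene or lying mostly outside the gene, or a failed estimate, made their level unclear.

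Outside annotated genes, the lines had similar numbers of loci. Loci of at least 300 bp and 1 FPKM that overlap no annotated gene numbered 1554 and 1518 in the OE-H4.V libraries, against 1608 and 1582 in OE-H4.Vs, and they held 4.51% and 3.43% of all FPKM of the OE-H4.V libraries, against 3.96% and 3.65% of those of OE-H4.Vs. With shorter loci included, the shares were 5.11% and 18.8% in OE-H4.V, against 18.0% and 20.8% in OE-H4.Vs. Merged over the 8 leaf libraries they formed 2811 regions. Of these, 759 had a locus in all 4 libraries, 73 in both OE-H4.V libraries and in neither of OE-H4.Vs, and 102 in both OE-H4.Vs libraries and in neither of OE-H4.V. Replicates differed here too, as 735 regions had a locus in 1 of the 2 OE-H4.V libraries only and 751 in 1 of the 2 OE-H4.Vs libraries only. The regions listed in 1 of the lines were mostly of low level, with medians of 2.36 and 2.44 FPKM in the OE-H4.V libraries for the 73 and 2.39 and 2.85 FPKM in OE-H4.Vs for the 102. A locus was also found in both OE-H4 libraries in 23 of the 73 and in 28 of the 102. It was absent from all OE-H4 and WT leaf libraries in 21 of the 73 and 35 of the 102.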

How the data were processed

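RNA-seq libraries of 16 rice samples, 2 per group, were made with a directional kit. The methods give poly(A) enrichment for seedlings and do not state it separately for leaves. Per the submitters' processing notes and the methods, the authors used Trimmomatic for trimming, HISAT2 for mapping (IRGSP1.0) and Cufflinks 2.2.1 for each library. The deposited values are FPKM with confidence bounds per locus. Annotated spans were collected over all libraries (29766 with an identifier, 5238 listed without one everywhere), which gave 30384 genes of at least 200 bp on the 12 chromosomes after spans lying by 50% in a longer one were left out. Loci were assigned to the gene that held at least 50% of them (BEDTools 2.31.1), and their FPKM were added up per gene, multiplied by the fraction of the gene that the locus covers. Assigned loci held 72.4% to 85.7% of the FPKM in the 4 libraries. In leaves 5443 genes under a locus of a second gene, mostly outside the gene, or with a failed estimate were left out, of which 2040 had a mean of 1 FPKM. limma 3.58.1 in R 4.3.3 (lmFit, eBayes with a trend) was run on log2(FPKM + 1) of the 8 leaf libraries, with 1 mean per group. Adjustment (Benjamini-Hochberg) was over the whole table. The seedlings had a fit of their own. Differences are on the log2(FPKM + 1) scale and understate changes of low genes. The fit was tested on simulated data drawn from normal distributions. These did not model loci assembled in 1 library and absent in another, so they do not check calls of that kind.

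Genes named are H4.V and the DEGs with an adjusted p under 0.05 and non-overlapping libraries. The comparison, cut-offs and lists were chosen with earlier results of these data known. Planned lists of gene families, canonical H4 genes and leaf markers were not used here, since the files do not pair identifiers with names. The labelled tissue was therefore not checked. Alternatives were other pseudocounts, filters, scalings, libraries and matching rules. Python 3.11.15, pandas 2.3.3, NumPy 2.4.6 and matplotlib 3.10.9 were also used.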

Additional observations from a re-analysis of the deposited data

Results flagged for a closer look

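Some regions outside annotated genes, which were not part of the gene comparison, had at least 10 FPKM in both libraries of one line and at most 1.5 FPKM in every other leaf library. In OE-H4.V this was 1 region, on chromosome 1 from 35488744 to 35489829, with 14.5 and 20.5 FPKM, listed in neither OE-H4.Vs library and at 1.37 FPKM in OE-H4 replicate 2. In OE-H4.Vs there were 4, without a locus in the 6 other leaf libraries. The highest, at 589051 to 594592 of chromosome 7, had 57.9 and 93.6 FPKM. Another of chromosome 7, at 3574424 to 3574829, had 22.9 and 27.1 FPKM. On chromosome 12, the region from 8237450 to 8237856 had 14.6 and 35.9 FPKM and that from 4088770 to 4089439 had 11.3 and 11 FPKM. These regions were picked by their values and not tested.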

How the results depend on the processing

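The comparison gave 68 DEGs (29 higher, 39 lower in OE-H4.V) and 12 genes at an adjusted p under 0.05. A pseudocount of 0.1 gave 105 DEGs, 67 of them lower, and ended the call of Os06g0295900 (adjusted p = 0.0500038), of the chromosome 2 gene at 30786415 (0.0591) and of the chromosome 7 gene at 15293180 (0.0845), all by limma. The call of the chromosome 7 gene at 16886901 ended with a mean of at least 5 FPKM (0.0643), with median-of-ratios scaling (0.0729) and with the plain sum of loci (0.0578). With a mean of at least 5 FPKM, which leaves 7786 genes, there were 38 DEGs, 19 higher and 19 lower, and 5 genes at the adjusted p. With no filter 42 genes had an adjusted p under 0.05, and with the 4 libraries of the lines alone 1 did. Among genes with stable replicates in WT and OE-H4 there were 41 DEGs (18 higher, 23 lower). An absolute log2 difference over 1 gave 145 DEGs (57 higher, 88 lower), and an adjusted p in the DEG rule left 12 (5 higher, 7 lower). Leaving out 1 of the 4 libraries gave 101 to 195 DEGs, 35 to 73 of them higher and 51 to 122 lower, and 21 to 51 genes at the adjusted p, and 45 to 49 of the 68 were among the DEGs each time. The library left alone in its group is then assumed to vary like the other groups. The most DEGs, 195, came without OE-H4.Vs replicate 2. The cause of these moves was not tested. Of the 12 named genes, 6 could be tested with a mean of at least 5 FPKM and 9 with loci assigned at 80% overlap. Those not tested at 80% overlap were Os06g0295900 and the chromosome 7 genes at 15293180 and 16886901. Wherever tested, none changed direction. The other counts stayed within 1.5 times the main ones. Median-of-ratios scaling gave 65 DEGs (30 higher, 35 lower) and moved the median difference of all genes to 0.00, against -0.06.

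With the replicate number as a block, 72 genes were DEGs (30 higher, 42 lower) and 9 had an adjusted p under 0.05. The differences between replicate 1 and 2 correlated between groups by -0.08 to 0.10, so the libraries share only a number. Read counts are not given, and the deposited bounds of each locus did not enter the fit.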
